A study of Mus musculus with 24 samples.

Results

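The microglia and complement genes are a list of 33 symbols that covers the complement proteins made by brain macrophages, the surface receptors and signalling adaptors of microglia, and markers that microglia share with other myeloid cells. A member was taken from the deposited table where a probe set named that symbol and no other, and where a gene had several such probe sets the one with the highest mean over 24 arrays was used. This gave 32 of the 33 genes, each with 1 probe set, of 19937 genes measured in all; C3, the protein on which all complement pathways converge, has no such probe set and was not analysed here. Whole hypothalamus, frozen at the peak of daily blood pressure, came from untreated male mice of the genetically hypertensive strain BPH/2J and the normotensive strain BPN/3J under standard housing. Mice were 6 or 26 weeks old, with 6 mice in each of the 4 groups, 1 mouse per Affymetrix Mouse Gene ST array and no pooling. The strains are inbred lines that differ across the genome, so a strain difference compares whole genomes and not blood pressure alone. Each member was read from 1 probe set, and sequence differences between the strains under its probes were not examined.

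Microglia are the resident macrophages of the brain parenchyma. They depend on signalling through the receptor Csf1r, sense nucleotides with P2Y receptors such as P2ry12 and P2ry13 and fractalkine with Cx3cr1, and take up debris and synapses. They are also the main brain source of C1q, the trigger of the classical complement cascade, whose molecule is built from the A, B and C chains encoded by C1qa, C1qb and C1qc. In bulk tissue, fewer microglia and less RNA per microglia cannot be told apart.

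Values are log2 expression after RMA, so a difference of 1 is a doubling, and differences are given as BPH/2J minus BPN/3J or as 26 weeks minus 6 weeks. Members were read above the level of 11799 probe sets with no gene name, whose array medians ran from 4.60 to 5.25: 28 of 32 members were above that median on all 24 arrays, Fcrls missed it on 2 arrays, and Gpr34, Cd14 and Csf3r each missed it on 1. Of all 19937 genes, 16040 had a group mean above that level in at least 1 group. Passing it is thus common and does not by itself show that a marker is present. The mean over the 32 members lay between 6.64 and 7.11 on all arrays. Replicate 6 of the 26-week BPN/3J mice stood apart, with the lowest member mean, the highest unnamed median and the lowest value of its group for 21 of 32 members.

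The 26-week arrays fell into 2 sets on 19666 genes that are in none of the gene lists. The first principal component after removal of strain means held 41.7% of the variance, and its widest gap separated replicates 1 to 4 of both strains, called set A here, from replicates 5 and 6 of both strains, called set B. Ward clustering gave the same sets, while average linkage put BPN/3J replicate 3, the set A array nearest the gap, with set B. The labels give no batch that would name this split, and the rule was chosen after the data were seen. Because each set holds both strains, strain comparisons at 26 weeks are given with and without set B, and so are age comparisons. Markers of neighbouring tissue also differed between groups. The members and the marker lists were chosen with earlier results of these data known. Their counts set against all genes are thus a description and no independent test. The mean of 16 genes of the thalamus, which borders the hypothalamus, ran from 7.38 to 8.96 in 6-week BPH/2J mice against 8.92 to 9.30 in 6-week BPN/3J mice, and 14 of the 16 were called lower in BPH/2J at that age. Of 12 oligodendrocyte genes, 6 were also called lower in BPH/2J at 6 weeks (median of the 12 -0.51), and their mean ran from 9.35 to 10.2 in BPH/2J and from 9.83 to 10.5 in BPN/3J.

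The promoters of 8 members on which the results below turn are shown first, because these genes share a cell type and some of them move together. Each is the 250 bases before the RefSeq transcription start on GRCm38.p6, written 5′ to 3′ on the gene's own strand; the hexamer GAGGAA, a core that the myeloid factor PU.1 can bind, was searched on both strands, and capitals mark it or its reverse complement TTCCTC. C1qc (chr4:136892915-136893164, minus strand) and C1qb (chr4:136886201-136886450, minus strand) encode C1q chains, and Laptm5 (chr4:130913066-130913315, plus strand) encodes a lysosomal membrane protein of blood-derived cells. Fcrls (chr3:87263525-87263774, minus strand) is an Fc receptor-like scavenger protein of microglia, and Olfml3 (chr3:103738002-103738251, minus strand) is a secreted olfactomedin-like protein. Cd53 (chr3:106790150-106790399, minus strand) is a leukocyte tetraspanin, P2ry13 (chr3:59210883-59211132, minus strand) an ADP receptor, and Mpeg1 (chr19:12460520-12460769, plus strand) a pore-forming protein of macrophages.
C1qc: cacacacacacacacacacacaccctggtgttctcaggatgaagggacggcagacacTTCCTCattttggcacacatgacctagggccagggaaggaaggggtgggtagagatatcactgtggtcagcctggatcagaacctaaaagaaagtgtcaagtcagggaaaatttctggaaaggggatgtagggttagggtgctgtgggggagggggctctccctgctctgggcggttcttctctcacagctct
C1qb: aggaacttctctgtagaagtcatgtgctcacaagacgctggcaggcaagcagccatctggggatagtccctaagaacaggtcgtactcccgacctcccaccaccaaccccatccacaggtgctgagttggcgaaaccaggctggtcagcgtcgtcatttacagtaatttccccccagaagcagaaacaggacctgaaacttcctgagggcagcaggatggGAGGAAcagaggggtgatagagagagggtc
Laptm5: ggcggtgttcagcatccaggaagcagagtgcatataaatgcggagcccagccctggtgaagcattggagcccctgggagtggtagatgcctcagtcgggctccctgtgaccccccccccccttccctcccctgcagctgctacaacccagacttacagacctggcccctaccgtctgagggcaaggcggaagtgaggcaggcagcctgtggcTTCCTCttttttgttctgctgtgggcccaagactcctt
Fcrls: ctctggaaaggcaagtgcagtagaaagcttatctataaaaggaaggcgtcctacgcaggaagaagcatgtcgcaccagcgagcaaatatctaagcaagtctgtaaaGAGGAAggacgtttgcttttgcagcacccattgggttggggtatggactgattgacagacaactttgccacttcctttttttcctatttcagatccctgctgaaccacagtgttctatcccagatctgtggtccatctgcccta
Olfml3: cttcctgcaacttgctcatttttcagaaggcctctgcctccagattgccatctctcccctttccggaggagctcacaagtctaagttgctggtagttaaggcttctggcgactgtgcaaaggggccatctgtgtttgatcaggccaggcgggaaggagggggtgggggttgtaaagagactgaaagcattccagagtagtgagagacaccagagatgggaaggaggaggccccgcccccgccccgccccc
Cd53: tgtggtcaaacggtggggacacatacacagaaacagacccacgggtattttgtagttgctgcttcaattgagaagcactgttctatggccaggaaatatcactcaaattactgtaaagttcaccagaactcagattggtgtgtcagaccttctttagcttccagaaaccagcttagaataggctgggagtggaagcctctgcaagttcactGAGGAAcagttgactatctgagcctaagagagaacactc
P2ry13: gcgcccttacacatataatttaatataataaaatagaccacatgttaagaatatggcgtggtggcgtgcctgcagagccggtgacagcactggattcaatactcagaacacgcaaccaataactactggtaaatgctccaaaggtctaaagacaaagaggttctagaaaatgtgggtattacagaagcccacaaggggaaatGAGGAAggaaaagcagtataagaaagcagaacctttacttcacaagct
Mpeg1: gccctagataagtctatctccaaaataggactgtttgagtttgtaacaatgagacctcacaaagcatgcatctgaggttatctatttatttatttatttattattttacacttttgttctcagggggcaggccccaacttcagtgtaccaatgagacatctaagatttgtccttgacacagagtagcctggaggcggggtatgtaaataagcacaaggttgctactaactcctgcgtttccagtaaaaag

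The hexamer began 30 bases before the start in C1qb, 38 in Laptm5, 39 in Cd53, 48 in P2ry13, 144 in Fcrls and 193 in C1qc, and the windows of Olfml3 and Mpeg1 did not hold it. Of 24 members with an entry in the promoter table, 15 had the hexamer in at least 1 promoter, and by promoter 16 of 28 held it (57.1%), against 7639 of all 32851 promoters (23.3%). A match is a description of the letters and not a binding site.

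At 6 weeks, a few members differed between the strains by themselves while the list as a whole did not shift. Of 32 members, 6 were called (18.8%; limma, Benjamini-Hochberg adjusted p under 0.05 over all genes), 5 lower and 1 higher in BPH/2J, where 7.42% of all genes were called (4.42% lower, 2.99% higher). The median difference over the members was 0.01, equal to that over all genes at 0.01, with 17 members positive and 15 negative. C1qc, C1qb, Laptm5, Fcrls and Olfml3 were lower in BPH/2J and their groups did not overlap, a pattern found in 2.78% of all genes. Tyrobp was higher.

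C1qc, the C chain of C1q, had the largest difference of the list at 6 weeks. In 6-week BPH/2J mice its values had a lowest, median and highest of 6.83, 7.30 and 7.46, and in BPN/3J mice 7.97, 8.05 and 8.13. All 6 hypertensive mice lay below all 6 normotensive mice. The difference was -0.81 ± 0.09 (SE, n = 6 per group), a 1.75-fold lower probe set value, with an adjusted p of 2.05e-06 by limma. At 26 weeks the corresponding values were 7.20, 7.35 and 7.48 in BPH/2J and 7.56, 7.89 and 8.22 in BPN/3J, again with no overlap (0.883% of all genes were lower with no overlap at that age). The 26-week difference was -0.55 ± 0.09 (SE, n = 6; limma adjusted p = 0.000475), or 1.47-fold lower. The call held at both ages in all 24 fits that left out 1 array.

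**Figure D1:**
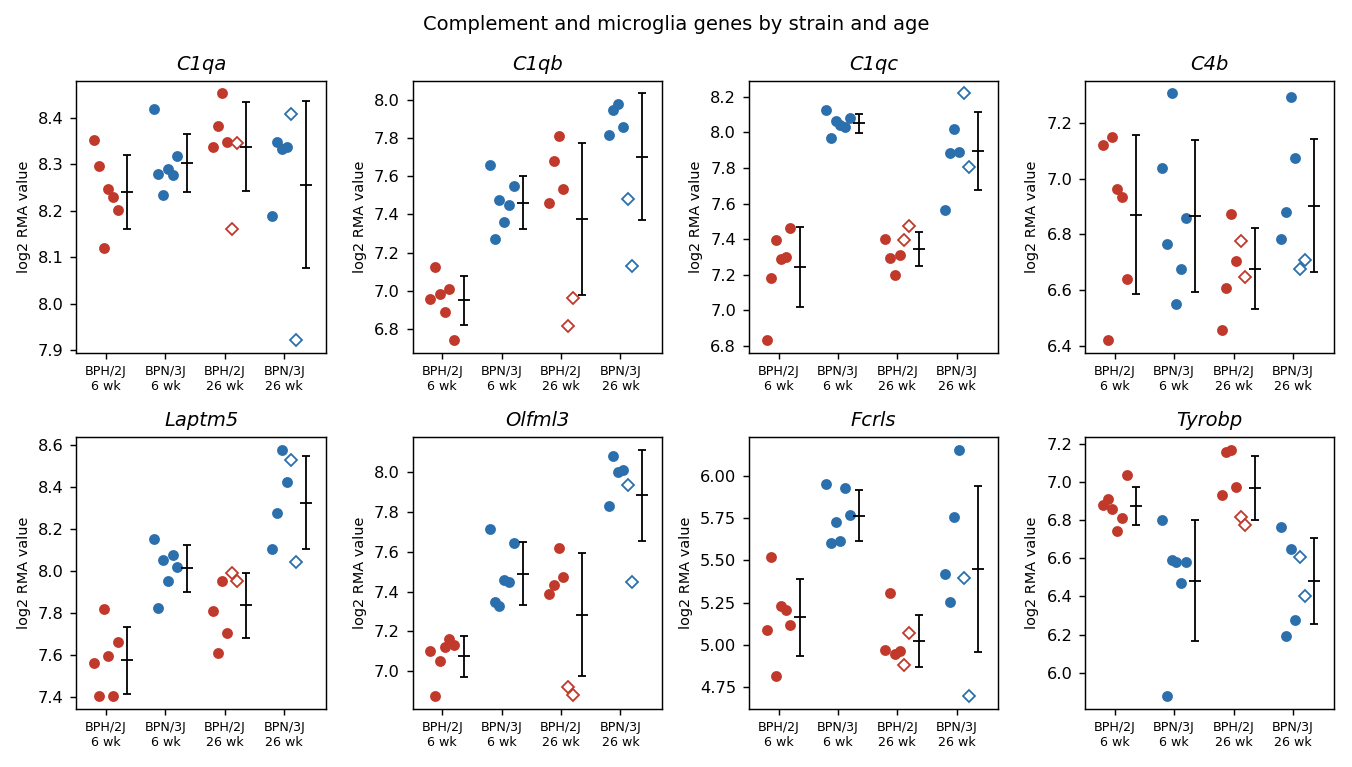
Log2 RMA value (y axis) of the 6 strain-called members, C1qa and C4b in each mouse, by strain and age (x axis); bars give mean ± SD of 6 arrays and open diamonds mark replicates 5 and 6 at 26 weeks. The C1qc values of BPH/2J lie below those of BPN/3J at both ages, while C1qa overlaps between strains.

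The other C1q chains did not share the size of this difference. C1qb was lower at 6 weeks, at 6.74, 6.97 and 7.12 in BPH/2J against 7.27, 7.46 and 7.66 in BPN/3J (lowest, median, highest), with no overlap. That is a difference of -0.51 ± 0.15 (SE, n = 6; limma adjusted p = 0.0309). At 26 weeks the C1qb groups overlapped, at 6.81, 7.497 and 7.81 against 7.13, 7.84 and 7.98, and the difference of -0.33 was not called (limma adjusted p = 0.346). C1qa, the A chain, overlapped at both ages. Its medians at 6 weeks were 8.24 in BPH/2J (8.12 to 8.35) and 8.29 in BPN/3J (8.23 to 8.42), and at 26 weeks 8.35 (8.16 to 8.45) and 8.34 (7.92 to 8.41), with differences of -0.06 and 0.08.

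The gap between chains was tested within each mouse. C1qc minus C1qa was -0.997 ± 0.295 (SD, n = 6) in 6-week BPH/2J and -0.25 ± 0.05 in BPN/3J, a strain difference of -0.75, and at 26 weeks the strain difference was -0.63. Both had p = 0.00216 by a two-sided exact permutation test, the smallest that 6 against 6 can give, and p = 0.00433 adjusted over the 4 chain comparisons. Here the groups did not overlap at either age. The 4 comparisons all use C1qc, whose values alone already separated the strains, while C1qa overlapped. The p-values are thus no separate support for an unequal strain difference of C1qc and C1qa. C1qc minus C1qb differed by -0.30 at 6 weeks (exact permutation p = 0.039, adjusted 0.0519) and by -0.23 at 26 weeks (exact permutation p = 0.398), which did not pass. Across the 24 arrays with group means removed, C1qa and C1qb correlated at r = 0.65, C1qa and C1qc at 0.04, and C1qb and C1qc at -0.23. These points share RNA and array, and genes side by side on a chromosome are not independent.

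In RefSeq order the C1q genes lie next to one another as C1qb, C1qc and C1qa. Of the 10 nearest measured neighbours of C1qc, 3 were called at 6 weeks, namely C1qb, Luzp1 (difference -0.36) and Epha8 (-0.25), all lower in BPH/2J, and 0 at 26 weeks by limma. Of the 10 nearest neighbours of each other strain-called member, limma called 3 and 1 for C1qb at 6 and 26 weeks. The same counts were 2 and 2 for Olfml3, 1 and 1 for Fcrls, 0 and 1 for Tyrobp, and 0 and 0 for Laptm5. For C1qb these were C1qc, Luzp1 and Epha8 at 6 weeks and C1qc at 26 weeks, all named above. Those of Olfml3 were Syt6 (0.30) and Ap4b1 (0.33) at 6 weeks, and Ap4b1 (0.27) and Ptpn22 (-0.31) at 26 weeks. That of Fcrls was Cd1d1 (0.55 and 0.50), and that of Tyrobp was Sdhaf1 (0.27). Of all genes, 7.42% and 2.67% were called at 6 and 26 weeks.

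Laptm5 was the other member with the same strain difference at both ages and no overlap. At 6 weeks it ran 7.40, 7.58 and 7.82 in BPH/2J and 7.82, 8.04 and 8.15 in BPN/3J (lowest, median, highest), a difference of -0.44 ± 0.09 (SE, n = 6; limma adjusted p = 0.0034). At 26 weeks it ran 7.61, 7.88 and 7.99 against 8.04, 8.35 and 8.58, a difference of -0.49 ± 0.09 (limma adjusted p = 0.00207). All 24 fits that left out 1 array kept both calls. At 6 weeks the highest BPH/2J mouse lay just under the lowest BPN/3J mouse.

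Olfml3 was lower in BPH/2J at both ages, with no overlap at 6 weeks and overlap at 26 weeks. Its 6-week values were 6.87, 7.11 and 7.16 in BPH/2J and 7.33, 7.45 and 7.71 in BPN/3J, a difference of -0.42 ± 0.12 (SE, n = 6; limma adjusted p = 0.0264). At 26 weeks they were 6.88, 7.41 and 7.62 against 7.45, 7.97 and 8.08, a difference of -0.60 ± 0.12 (limma adjusted p = 0.00239). The 6-week call was lost when replicate 2 or 3 of BPH/2J or replicate 1 or 6 of BPN/3J was left out, with adjusted p up to 0.072. Fcrls was lower at 6 weeks, at 4.81, 5.16 and 5.52 against 5.60, 5.75 and 5.95, by -0.60 ± 0.15 (SE, n = 6; limma adjusted p = 0.014). At 26 weeks its BPN/3J values spread from 4.70 to 6.16 around a median of 5.41, BPH/2J values lay from 4.88 to 5.30, and the difference of -0.42 was not called (limma adjusted p = 0.189). Fcrls is dim, so its lower values lie near the unnamed level.

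Tyrobp, the adaptor that carries signals from Trem2 and other receptors, went the other way. At 26 weeks BPH/2J mice had 6.77, 6.95 and 7.17 and BPN/3J mice 6.19, 6.50 and 6.76 (lowest, median, highest). The groups did not overlap, as in 0.863% of all genes higher in BPH/2J, and the difference was 0.49 ± 0.12 (SE, n = 6; limma adjusted p = 0.0191). At 6 weeks the values were 6.74, 6.87 and 7.04 against 5.88, 6.58 and 6.80, with overlap and a difference of 0.39 ± 0.12 (limma adjusted p = 0.042). The 6-week call was lost in 12 of the 24 fits without 1 array and the 26-week call in 3, with adjusted p up to 0.109 and 0.0594. With the replicate number as a block the 26-week call held over all arrays (limma adjusted p = 0.0183) and was lost over the 26-week arrays alone (limma adjusted p = 0.0525). Trem2, the receptor that signals through Tyrobp, differed by -0.06 at 6 weeks and 0.04 at 26 weeks and was not called.

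At 26 weeks 4 of 32 members were called between the strains (12.5%), C1qc, Laptm5 and Olfml3 lower and Tyrobp higher in BPH/2J, where 2.67% of all genes were called (1.34% lower, 1.32% higher). These 4 members were called in the same direction at both ages, as were 1.53% of all genes. The list median was 0.12 at 26 weeks against 0.01 for all genes, with 21 members positive. At an unadjusted p under 0.05 there were 13 of the 32 members, where 12.5% of all genes passed. Mpeg1 had the largest positive value at 0.59 ± 0.18 (SE, n = 6; limma adjusted p = 0.0822) and was not called. Same-numbered mice of the 26-week strains deviated together, and with the replicate number as a block Mpeg1 was called, with limma adjusted p = 0.0326 over all arrays and 0.00484 over the 26-week arrays alone. The change of the strain difference from 6 to 26 weeks was called for 0 of 32 members (0.0301% of all genes). Also 0 had an unadjusted p under 0.05, where 10.8% of all genes did. Values ran from -0.23 to 0.26, with a lowest limma adjusted p of 0.494. The strain differences at 6 and 26 weeks were thus not shown to differ from each other, and the median SE of such a change was 0.14.

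**Figure D2:**
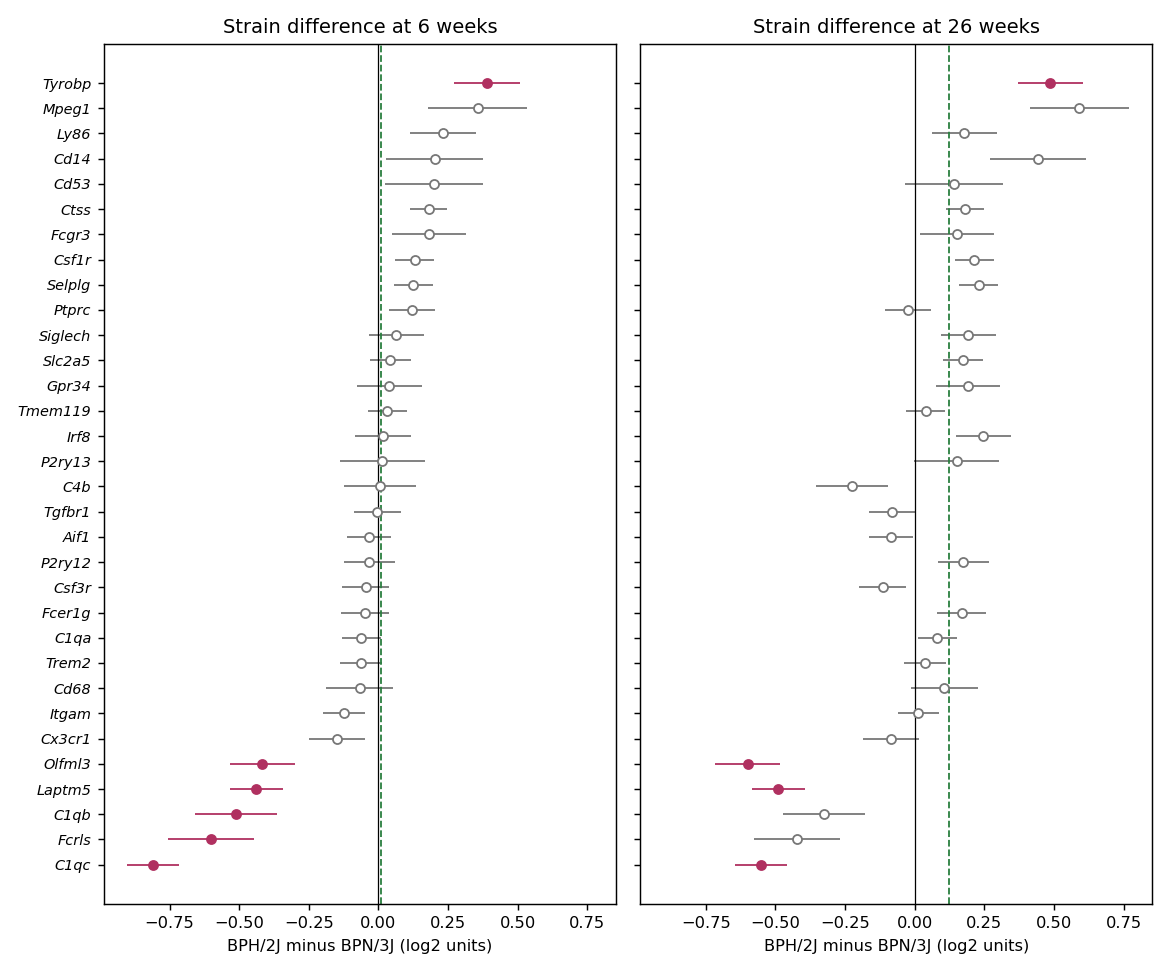
Strain difference (BPH/2J minus BPN/3J, log2) of each of the 32 members at 6 and 26 weeks, with bars of 1 SE; filled points passed the adjusted limma threshold and the dashed green line is the member median. C1qc, Laptm5 and Olfml3 lie far left of the line at both ages and Tyrobp lies to the right. The member median was 0.01 at 6 weeks and 0.12 at 26 weeks, where 21 of the 32 were positive.

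The strain calls at 26 weeks were recomputed from set A alone, that is, without replicates 5 and 6. There 6 members were called: C1qc (-0.54), Laptm5 (-0.58), Olfml3 (-0.50) and Fcrls (-0.60) lower, and Tyrobp (0.59) and Mpeg1 (0.62) higher, where 2.69% of all genes were called. From set B alone only Olfml3 was called (-0.79), with 1.12% of all genes. With the average linkage sets, set A again gave 6, with Selplg (0.27) called and Fcrls not, and set B gave C1qc (-0.58) and Olfml3 (-0.90). With the set as a term in the model 9 members were called, adding C1qb (-0.33), Csf1r (0.21), Selplg (0.23), Mpeg1 (0.59) and Cd14 (0.44), against 4.42% of all genes. In the 6-week comparison, adding the mean of the thalamus genes as a covariate left C1qc (-0.81) and Laptm5 (-0.67) called and 0.772% of all genes; the part of the thalamus genes in the other 4 calls was not tested.

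With age, several receptors and surface proteins of microglia rose in BPH/2J mice. Of 32 members, 7 were called, all higher at 26 weeks, where 16.9% of all genes were called (8.23% higher, 8.64% lower). The list median was 0.11 against -0.03 over all genes, and 25 members were positive. In BPN/3J mice 5 members were called, 4 higher and 1 lower, where 12.3% of all genes were called (4.60% higher, 7.66% lower), with a median of 0.08 against -0.03. Cd53 and P2ry13 were called higher in both strains, as 4.97% of all genes were called in the same direction in both. The shares of members called in either direction, 21.9% and 15.6%, are close to the 16.9% and 12.3% of all genes. By direction they are not: in BPH/2J 21.9% of members were higher against 8.23% of all genes, and 0 were lower against 8.64%. In BPN/3J 4 of 32 were higher against 4.60% of all genes, and 1 was lower against 7.66%. In BPH/2J, 13 of the 16 thalamus genes also rose with age, by a median of 1.02 over the 16. With their mean as a covariate 0 members were called by limma (0.0401% of all genes were called). Of the members 9 had an unadjusted p under 0.05 there, a cut whose share of all genes in that fit is not given here. In BPN/3J 0 of the 16 were called with age, with 1 at an unadjusted p under 0.05 (29.3% of all genes). Of the 12 oligodendrocyte genes 6 fell there (median of the 12 -0.47), and in BPH/2J 2 of these rose and 1 fell. The part of the oligodendrocyte genes in the members' values was not tested.

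P2ry13 had the largest rise in BPH/2J. It ran 7.15, 7.24 and 7.56 at 6 weeks and 7.52, 8.16 and 8.36 at 26 weeks in BPH/2J (lowest, median, highest), a difference of 0.71 ± 0.15 (SE, n = 6; limma adjusted p = 0.00278). In BPN/3J it ran 7.08, 7.32 and 7.49 and then 7.35, 7.9999 and 8.23, a difference of 0.57 ± 0.15 (limma adjusted p = 0.0189). The BPN/3J call was lost without 26-week BPN/3J replicate 2 (limma adjusted p = 0.0562). Without that array 0 of 32 members were called with age in BPN/3J by limma, and 9 had an unadjusted p under 0.05. The share of all genes called in that fit is not given here, so this is not a result about the members. The ages overlapped in both strains, and the lowest 26-week arrays of each strain were replicates 5 and 6. P2ry12, the related ADP receptor that is a marker of resting microglia, rose by 0.28 in BPH/2J (limma adjusted p = 0.0371), from a median of 6.18 (5.94 to 6.42) to 6.49 (6.24 to 6.68), and was not called in BPN/3J (0.07, adjusted p = 0.631), with medians of 6.21 (6.10 to 6.31) and 6.38 (5.92 to 6.43). Gpr34, a lysophosphatidylserine receptor, was the member called higher with no overlap in BPH/2J, from 5.03, 5.17 and 5.37 to 5.40, 5.67 and 5.94, by 0.47 ± 0.12 (limma adjusted p = 0.00683), where 1.47% of all genes were higher with no overlap.

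Cd53 rose in both strains. It ran 7.18, 7.36 and 7.46 at 6 weeks and 7.18, 8.10 and 8.41 at 26 weeks in BPH/2J, a difference of 0.60 ± 0.18 (SE, n = 6; limma adjusted p = 0.0205). In BPN/3J it ran 6.91, 7.15 and 7.29 and then 7.09, 7.97 and 8.10, a difference of 0.66 ± 0.18 (limma adjusted p = 0.0189), a call lost without 26-week BPN/3J replicate 2 or 4 (limma adjusted p up to 0.053). Mpeg1 rose in BPH/2J, from 6.14, 6.43 and 6.66 to 6.49, 7.26 and 7.48, by 0.67 ± 0.18 (limma adjusted p = 0.0114), and its BPN/3J difference of 0.44 was not called (limma adjusted p = 0.102), with 5.78, 5.98 and 6.43 and then 5.83, 6.66 and 6.82. Cd68, a lysosomal glycoprotein of phagocytes, rose by 0.41 in BPH/2J (limma adjusted p = 0.0213), from a median of 6.28 (6.08 to 6.44) to 6.67 (6.42 to 7.10); in BPN/3J its medians were 6.37 (6.15 to 6.52) and 6.63 (6.06 to 6.87). C1qb rose by 0.43 in BPH/2J (limma adjusted p = 0.0463), a call lost in 16 of 24 fits without 1 array.

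Irf8, a transcription factor that microglia need, was the 1 member called lower with age. In BPN/3J it ran 6.13, 6.22 and 6.32 at 6 weeks and 5.65, 5.83 and 6.09 at 26 weeks, with no overlap, as in 3.32% of all genes lower at 26 weeks. The fall was -0.37 ± 0.10 (SE, n = 6; limma adjusted p = 0.0207), and the call was lost in 3 of the 24 fits without 1 array. In BPH/2J it ran 6.02, 6.26 and 6.42 and then 5.75, 6.02 and 6.42, a difference of -0.14 that was not called. In BPN/3J, Olfml3 and Laptm5 also rose, by 0.39 (limma adjusted p = 0.0299) and 0.31 (limma adjusted p = 0.0314).

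The age calls depended on the 26-week arrays used. From set A alone, 16 members were called in each strain, 14 higher and 2 lower, where 39.3% of all genes were called in BPH/2J and 33.6% in BPN/3J. Of 32 members, 14 (43.8%) were called in both strains in the same direction, against 23.0% of all genes. Those 14 are 87.5% of each strain's list of members, where the genes called in both are 58.4% and 68.3% of the BPH/2J and BPN/3J lists over all genes. The 12 that rose in both were C1qb, Cd14, Cd53, Cd68, Cx3cr1, Fcgr3, Gpr34, Ly86, Mpeg1, Olfml3, P2ry12 and P2ry13, and Csf1r and Irf8 fell in both. Cd53 rose by 0.91 and 0.88 in BPH/2J and BPN/3J, P2ry13 by 0.95 and 0.80, and Mpeg1 by 0.95 and 0.69, while Csf1r changed by -0.19 and -0.24 and Irf8 by -0.29 and -0.42. The sets were defined among the 26-week arrays only, so age and array set cannot be told apart in these values. Both strains hold the same sets, so agreement between the strains is not separate support. From set B alone, 1 member was called in BPH/2J (Tgfbr1, -0.40; 1.95% of all genes) and 0 in BPN/3J (0.135% of all genes) by limma, with 6 at an unadjusted p under 0.05. The share of all genes at that unadjusted cut in this fit is not given here. With the average linkage sets, set A again gave 16 in each strain, and set B gave 0 in each.

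**Figure D3:**
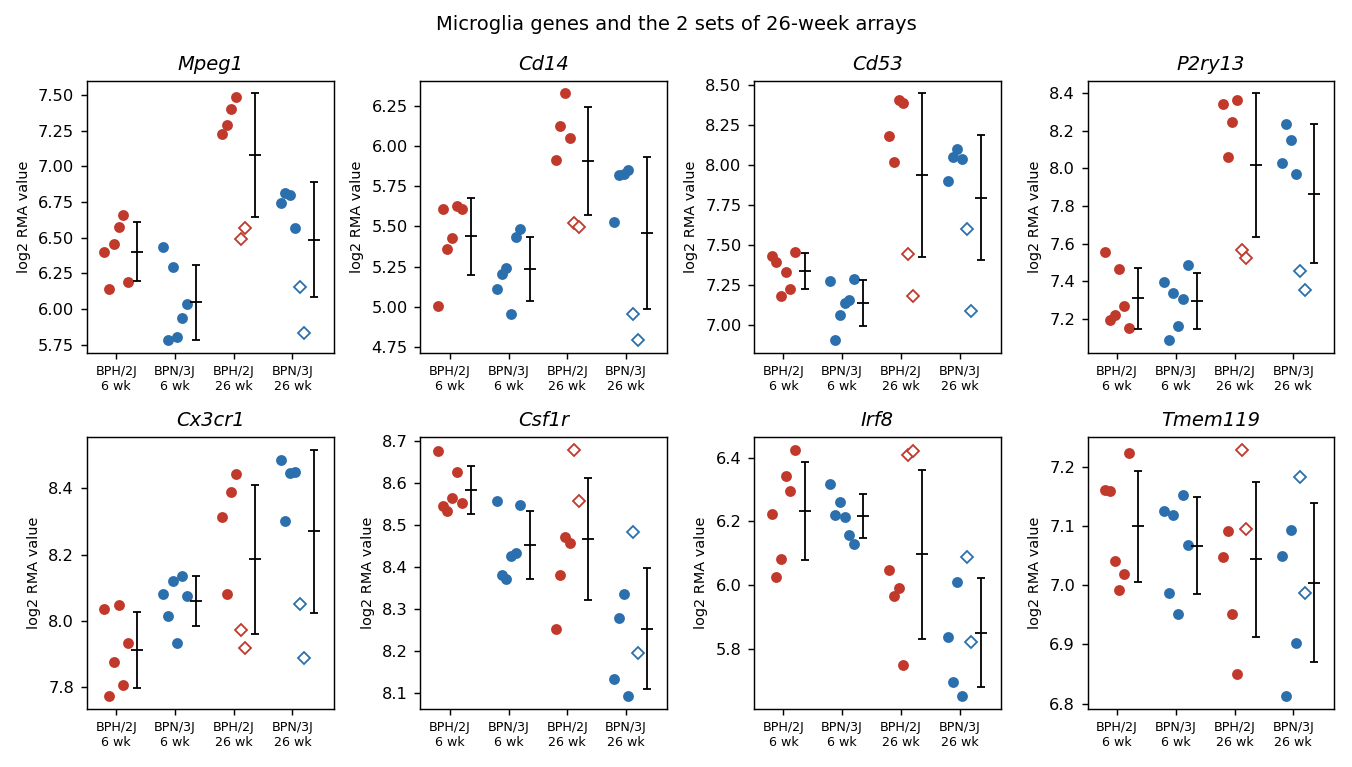
Log2 RMA value (y axis) of 8 members in each mouse by strain and age (x axis); bars give mean ± SD of 6 arrays and open diamonds mark replicates 5 and 6 at 26 weeks. In Mpeg1, Cd14, Cd53, P2ry13 and Cx3cr1 the 4 other 26-week mice of each strain lie above the diamonds, most of which sit among or near the 6-week values, while Csf1r, Irf8 and Tmem119 do not show this.

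Within the 26-week mice, set A lay wholly above set B for 15 members in BPH/2J (46.9%, against 23.1% of all genes) and for 10 in BPN/3J (31.2%, against 17.0%). For 9 members this was so in both strains (28.1%, against 11.3%). Set A lay wholly below set B for 4 members in BPH/2J (12.5%, against 23.7%) and for 0 in BPN/3J (against 11.7%). Set A exceeded set B in BPH/2J and BPN/3J by 0.93 and 0.68 for Cd53, 0.82 and 0.74 for Mpeg1, 0.73 and 0.60 for C1qb, 0.71 and 0.69 for P2ry13, and 0.59 and 0.88 for Cd14, the co-receptor for bacterial lipopolysaccharide. The same differences were -0.13 and -0.17 for C1qc, -0.20 and 0.06 for Laptm5 and 0.27 and -0.03 for Tyrobp, the members called between the strains with no overlap at 26 weeks. The sets were defined from the data, and no test was made between them.

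To separate members that move together from members that move alone, each member was correlated over the 24 arrays with the mean of the other members, after group means were removed. The median r was 0.55, and 12 of 32 members were above 0.7, among them Olfml3 (0.87), Tgfbr1 (0.86), Cd53 (0.84), Mpeg1 (0.82) and C1qb (0.82). Of the 32, 9 were under 0.2 and 5 below 0: Irf8 (-0.31), Siglech (-0.29), Tmem119 (-0.23), C1qc (-0.08) and Csf1r (-0.03). All members share the same arrays and RNA, so these values are a description. When the means of the 2 sets were also removed, r was 0.74 for Csf1r, 0.36 for Irf8 and 0.28 for C1qc, and the list median was 0.49. Over the 6-week arrays alone the median was 0.44. Olfml3 was called between strains and also followed the shared shift, whereas C1qc was called between strains with an r near 0.

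**Figure D4:**
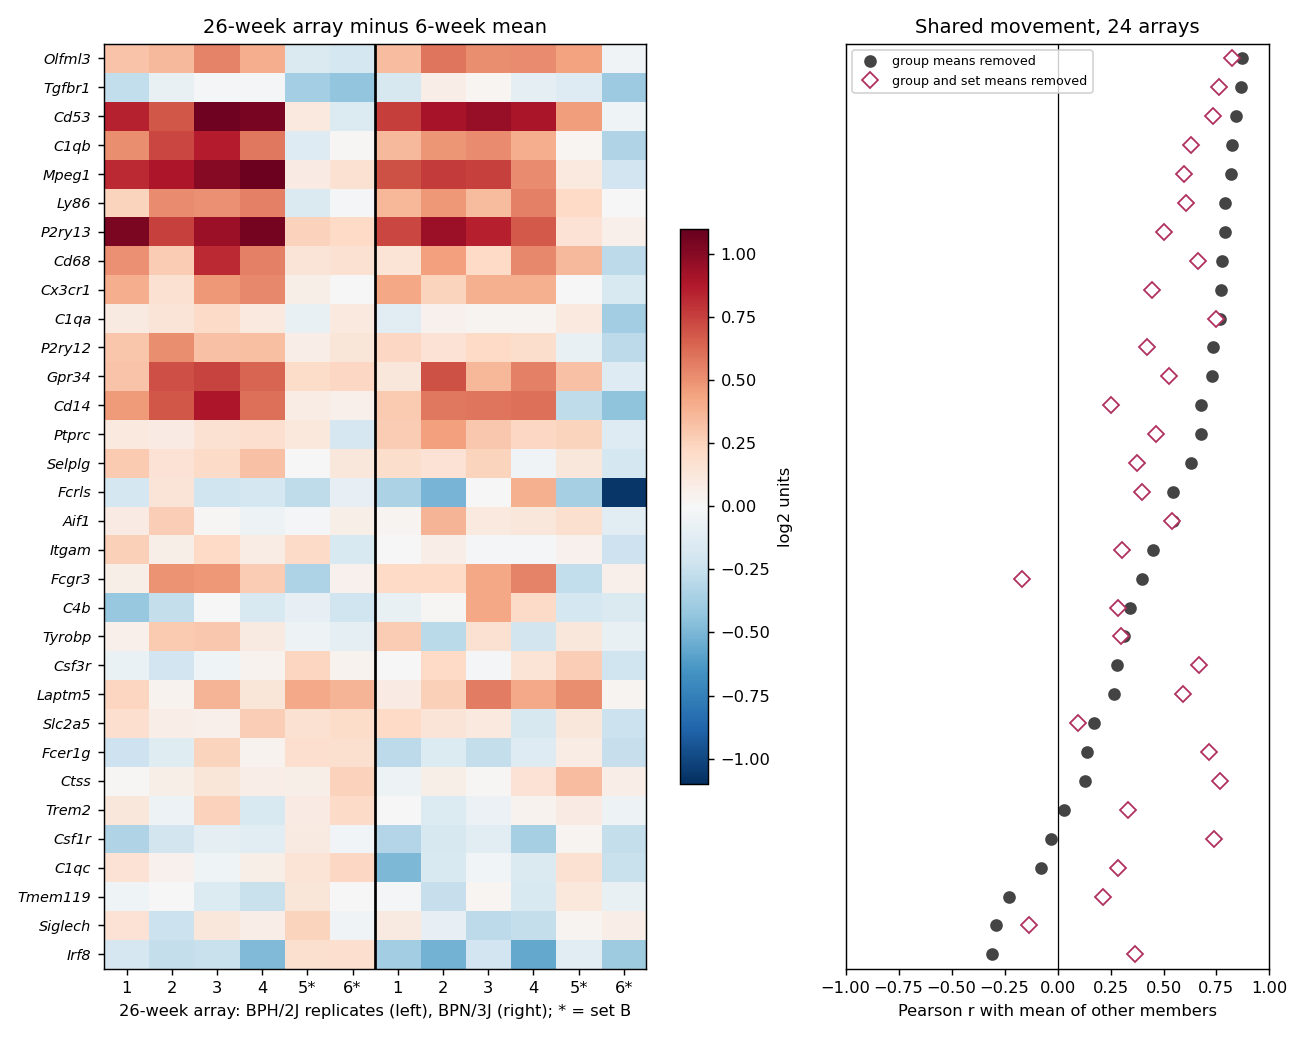
Left, a heatmap of each member's log2 value on each 26-week array minus the mean of the 6-week arrays of its strain; right, Pearson r of each member with the mean of the other members over 24 arrays, group means removed. For Cd53, C1qb, Mpeg1 and P2ry13, replicates 1 to 4 lie above replicates 5 and 6 in both strains, but Tgfbr1 shows no rise and BPN/3J replicate 5 is above its 6-week mean for Olfml3 (7.94 against 7.49) and Cd53 (7.60 against 7.14). Irf8, Siglech, Tmem119, C1qc and Csf1r have r below 0.

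The members of a set fixed for full description that were called in no comparison are given by their medians. Those at 6 weeks in BPH/2J and BPN/3J, and then at 26 weeks in the same order, were 6.95, 6.81, 6.68 and 6.83 for C4b, a classical-pathway component, and 7.90, 8.08, 8.20 and 8.37 for Cx3cr1, the fractalkine receptor. They were 8.56, 8.43, 8.46 and 8.24 for Csf1r, 7.10, 7.09, 7.07 and 7.02 for the microglial marker Tmem119, and 6.58, 6.63, 6.68 and 6.61 for Trem2. For the integrin chain Itgam they were 6.42, 6.51, 6.54 and 6.52, for the calcium-binding protein Aif1 6.08, 6.10, 6.10 and 6.21, and for the leukocyte phosphatase Ptprc 5.73, 5.68, 5.90 and 5.92. In all, 19 of 32 members were called in no comparison, including the lysosomal protease Ctss and the genes Siglech, Selplg, Slc2a5, Fcer1g, Fcgr3, Ly86, Cd14, Csf3r and Tgfbr1. Their strain differences ran from -0.15 to 0.23 at 6 weeks and from -0.22 to 0.44 at 26 weeks, with Cd14 the highest of the 26-week values.

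Other genes of the same cells and cascade were listed apart from the members. Of 39 measured further microglia genes, 5 were lower in BPH/2J at 6 weeks and 0 higher. Among the 5 were Slco2b1 (-0.36), Adgre1 (-0.40), Crybb1 (-0.33) and Blnk (-0.53). At 26 weeks 1 was lower, Adgre1 (-0.49), the F4/80 antigen. The strain shares were 12.8% at 6 weeks and 2.56% at 26 weeks, against 7.42% and 2.67% of all genes. With age 3 rose in BPH/2J, among them Blnk (0.78) and Lair1 (0.40), and 2 rose in BPN/3J, Fcgr1 (0.37) and Lair1 (0.34). These shares, 7.69% and 5.13%, are below the 16.9% and 12.3% of all genes called with age. Of 36 other complement genes, 2 were higher in BPH/2J at each age: C2, the classical-pathway protease, by 0.42 and 0.45, and Masp2, a lectin-pathway protease, by 0.37 and 0.32. At 26 weeks C4a was also called, at -0.42. The strain shares were 5.56% at 6 weeks and 8.33% at 26 weeks, against 7.42% and 2.67% of all genes. With age 2 fell in BPH/2J (5.56%, against 16.9% of all genes), among them C5ar2 (-0.35). In BPN/3J 0 of 36 were called with age, against 12.3% of all genes.

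Of 31 genes of activated microglia, 3 were lower in BPH/2J at 6 weeks, among them B2m, which pairs with the heavy chain of class I MHC, at -0.77, and Igf1 at -0.61, and 1 was higher. B2m was also lower at 26 weeks, at -0.83, the 1 call at that age. The strain shares were 12.9% at 6 weeks and 3.23% at 26 weeks, against 7.42% and 2.67% of all genes. With age, 4 of the 31 were called in each strain: Igf1 rose by 0.67 in BPH/2J and Apoe by 0.28 in BPN/3J, while Cd83 fell in both (-0.50 and -0.47). That share of 12.9% is below the 16.9% of all genes in BPH/2J and near the 12.3% in BPN/3J. Of 25 ligands and regulators of microglia from other cells, 1 was called between the strains at 6 weeks (Cd200, 0.29, a neuronal inhibitory ligand). At 26 weeks 0 were. The 6-week share was 4%, and 7.42% and 2.67% of all genes were called at 6 and 26 weeks. With age 5 were called in each strain, 1 higher and 4 lower, or 20% against 16.9% and 12.3% of all genes. Il34, a ligand of Csf1r, changed by -0.41 and Tgfb3 by 0.42 with age in BPH/2J. Cx3cl1, the ligand of Cx3cr1, changed by -0.32 and Apoe, also in this list, by 0.28 in BPN/3J.

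Markers of other macrophages and of blood cells gave no strain call. Of 13 border-macrophage genes and 19 blood-leukocyte genes, 0 were called between the strains at either age by limma. Of all genes, 7.42% were called at 6 weeks and 2.67% at 26 weeks. At an unadjusted p under 0.05 there were 1 border-macrophage gene at 6 weeks and 0 at 26 weeks, and 1 blood-leukocyte gene at each age. At that unadjusted cut 18.1% of all genes passed at 6 weeks and 12.5% at 26 weeks. The border-macrophage mean ran from 4.64 to 4.97 over all arrays with 3 of 13 genes above the unnamed level on all arrays, and the leukocyte mean from 4.21 to 4.59 with 10 of 19 at or below it on all arrays. Choroid plexus genes varied far more, from 5.58 to 8.28 between arrays, and were high on replicates 2, 3 and 4 of 26-week BPN/3J and on replicates 3 and 4 of 26-week BPH/2J; their part in the members' set A values was not tested.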

How the data were processed

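RNA from 24 hypothalami was hybridised to 24 arrays. The authors deposited log2 values for 34760 probe sets, with 0 missing, and the submitters' processing notes name RMA and limma. Versions of those tools, the build of the array annotation and any hybridisation batch are not stated in the labels or notes. RMA makes the arrays' distributions alike, so each difference is read against the rest of its array. Precision is limited by the number of arrays, which carry no read depth. Of the probe sets, 21640 had 1 symbol in the platform annotation, 1321 several and 11799 no name. The 32 measured members matched RefSeq by Entrez identifier. Each array's group and number came from its label, whose BPN/3J suffix was kept where the series' design text has another.

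All 19937 genes were fitted with limma (version 3.58.1, R 4.3.3) over 24 arrays, with 1 mean per group and 20 residual degrees of freedom. P-values were adjusted over all genes by Benjamini-Hochberg, with a threshold of 0.05. The fit was run on simulated data with independent noise for each gene and array. Those data held no array sets and no correlation between mice, so the run does not bear on either. The members and lists were chosen with earlier results of these data known. Named in full were members called in any comparison and a fixed set (C1qa, C1qb, C1qc, C3, C4b, Cx3cr1, Csf1r, P2ry12, Tmem119, Trem2, Tyrobp, Itgam, Aif1 and Ptprc). From other lists, up to 4 called genes per strain comparison and 2 per age comparison were named by smallest p, with B2m and Apoe. Replicates are separate mice. Same-numbered mice of the 26-week strains deviated together (correlations of 0.11 to 0.48 in all 6 pairs). Those of the 6-week strains did not (-0.23 to 0.06). Same-numbered BPH/2J mice of 6 and 26 weeks correlated at 0.01 to 0.42, over 0.1 in 4 of 6 pairs. For 6-week BPH/2J with 26-week BPN/3J the range was -0.16 to 0.20. With 6-week BPN/3J it was -0.21 to 0.01 for 26-week BPH/2J and -0.10 to 0.04 for 26-week BPN/3J. Set B is replicates 5 and 6 of both 26-week strains, and its part in the 26-week correlations was not tested. The replicate numbers come from the labels, which name no shared litter or day. No array was left out of the main values.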

Additional observations from a re-analysis of the deposited data

Results flagged for a closer look

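Among 128 member groups of 6 arrays, 6 held 1 array far from the other 5, and chance alone gives about 1 in 20, or 6.4. In 6-week BPN/3J mice, Tyrobp was 5.88 on replicate 2 against 6.47 to 6.80 on the others, and Trem2 was 6.74 on replicate 1 against 6.60 to 6.63. In 6-week BPH/2J mice, Ly86 was 7.66 on replicate 3 against 8.01 to 8.10. At 26 weeks replicate 6 was low for Ptprc in both strains, at 5.60 against 5.87 to 5.97 in BPH/2J and 5.52 against 5.90 to 6.11 in BPN/3J, and for Itgam in BPN/3J, at 6.29 against 6.49 to 6.59.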

How the results depend on the processing

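Alternatives were array centring, all probe sets of a gene averaged, a filter on dim genes, trend and robust variance, array weights, only the groups compared, a replicate block, a thalamus covariate and each array left out; a block on the 26-week arrays alone and the array sets were chosen after seeing the data. Array weights gave 7 called members for strain at 26 weeks (2.75% of all genes), 14 for age in BPH/2J (37.5%) and 15 for age in BPN/3J (32.2%). The thalamus covariate gave 2 for strain at 6 weeks and, by limma, 0 with age in BPH/2J (0.0401% of all genes). The array set term gave 9 for strain at 26 weeks. Set A gave 16 for age in each strain; set B gave 1 for the strain comparison at 26 weeks, 1 with age in BPH/2J and 0 with age in BPN/3J, whose median difference became -0.037. Average linkage sets gave 16 with age in each strain in set A (41.0% and 36.9% of all genes), and in set B 2 for strain, with a median of 0.0115, and 0 with age in each strain (2 and 6 members at an unadjusted p under 0.05 by limma). The shares of all genes at that unadjusted cut are not given here. With the replicate block over all arrays, 5 members were called for strain at 26 weeks (Mpeg1 added; 2.76% of all genes), 6 at 6 weeks (7.80%), 9 with age in BPH/2J (19.5%), 6 with age in BPN/3J (15.4%); the block on the 26-week arrays alone gave 5 (Mpeg1 and Cd14 added, Tyrobp lost; 1.93%). Olfml3 at 26 weeks was lost with only the groups compared.

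Without 1 array, 3 to 6 members were called for strain at either age and 0 for the change of the strain difference. With age the counts were 3 to 11 in BPH/2J and 0 to 11 in BPN/3J. The shares of all genes called in these fits are not given here, so the counts are not a result about the members. Counts moved by over 1.5 times at 6 weeks, to 3, without replicate 3 of BPH/2J and without replicate 6 of BPN/3J. With age in BPH/2J they were 4, 3, 3 and 11 without 26-week BPH/2J replicates 1, 3, 4 and 5, and 11 without 26-week BPN/3J replicate 6. With age in BPN/3J they were 3 without 6-week BPN/3J replicate 2, 3 or 4, and 0, 3, 2 and 11 without 26-week BPN/3J replicates 2, 3, 4 and 6. The medians then ran from -0.03 to 0.04 and 0.03 to 0.15 for strain at 6 and 26 weeks, 0.10 to 0.14 and 0.06 to 0.13 for age, and 0.06 to 0.12 for that change. Signs turned without 1 array for values close to 0: at 6 weeks C4b (-0.0584 to 0.0945), P2ry12 (-0.0818 to 0.0128) and Aif1 (-0.0773 to 0.0013); at 26 weeks Itgam (-0.0281 to 0.0695) and Ptprc (-0.0976 to 0.0295); for the change, Tmem119 (-0.0314 to 0.0457) and Cx3cr1 (-0.0124 to 0.1179); for age in BPN/3J, C1qa (-0.0775 to 0.02), C4b (-0.0412 to 0.1241), Tyrobp (-0.122 to 0.0624) and Itgam (-0.0425 to 0.0178).

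Other settings turned these signs. At 6 weeks they were C4b (-0.0049 centred, -0.3646 with the thalamus covariate), and P2ry12 (0.0021) and Aif1 (0.0043) with array weights. At 26 weeks they were Trem2 (-0.0019, array weights) and, in set B, C4b (0.0197), Itgam (-0.0102) and Ptprc (0.0374). For the change of the strain difference they were C4b (0.1355, thalamus covariate; 0.0151, set B), Tyrobp (-0.1014, set B) and Tmem119 (-0.0118, set A). With age in BPH/2J they were C4b (0.1769, thalamus covariate) and, in set B, C1qb (-0.0623), Tyrobp (-0.0789), Csf1r (0.0347), Tmem119 (0.0624), Cd53 (-0.0236) and Ptprc (-0.0354). With age in BPN/3J they were Tyrobp (0.0005, thalamus covariate), Itgam (0.0109, set A) and, in set B, C1qb (-0.1557), C4b (-0.1739), Tyrobp (0.0224), Cx3cr1 (-0.0894), P2ry12 (-0.1835), Trem2 (0.0165) and Tmem119 (0.0180). The average linkage sets turned, in set B, Itgam at 26 weeks (-0.0372), C1qb (-0.1311), Tyrobp (-0.1499) and Cx3cr1 (-0.0367) for the change, the same 6 values with age in BPH/2J, and Tyrobp (0.071), P2ry12 (-0.0498) and Tmem119 (0.0205) with age in BPN/3J, and in set A Itgam there (0.0179). Of these only C1qb and Cd53 in BPH/2J had been called. The cause was not tested.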
